A study of Homo sapiens with 42 samples.

Results

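HIF-1α with an intact partner surface was compared with its dimerization mutant in 6 polyA RNA-seq libraries of the 786-O line, out of 42 libraries in the series. 786-O is a clear cell renal cell carcinoma line that has no functional VHL, so its own HIF-2α is stable, and it makes no functional HIF-1α of its own. Both groups were stable lines made by transposon integration and puromycin selection, in which an L30 promoter drives a human HIF-1α with a V5-HaloTag at its N-terminus. The HIF-1α line carried the wild type protein (3 libraries) and the HIF-1αDM line the R170A-V191D double substitution (3 libraries), and both were grown in the same medium, without any oxygen treatment in the labels, in the first of 2 batches. Libraries of other lines of batch 1 are set beside them: unmodified wild type (WT) cells, cells with the DNA-binding mutant HIF-1α R30E, and cells with HIF-2α or its own dimerization mutant (HIF-2αDM), under the same promoter and tag, with 3 libraries for each line. Batch 2 added 3 HIF-1α and 3 WT libraries made with another RNA extraction and another library kit. The transgene amount differs from cell to cell under this promoter, each transgene was measured in 1 line, and a difference between lines that does not come from the substitutions cannot be told apart from one that does.

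HIF-1α is a bHLH-PAS transcription factor. Its PAS domains and helix-loop-helix hold it to HIF-1β (the product of ARNT), and only the pair of subunits places the basic regions on the hypoxia response element, a short DNA motif with the core ACGTG or GCGTG. HIF-1α is best known for raising glycolytic enzymes and mitophagy genes, and HIF-2α, its relative, is the α subunit that clear cell renal carcinoma usually retains.

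The 2 substituted residues lie in the first PAS domain. In the hg38 build, codon 170 of HIF1A is at chr14:61726756-61726758, in exon 5, and codon 191 is at chr14:61727453-61727455, in exon 6, on the plus strand. The reference coding stretch from codon 166 to codon 195 (90 bases, chr14:61726744-61727467 with the intron left out) is shown because these are the only positions at which the groups compared were designed to differ. The capitals mark the 2 codons as they stand before substitution, and the transgene itself may use other synonymous codons.
HIF1A codons 166 to 195: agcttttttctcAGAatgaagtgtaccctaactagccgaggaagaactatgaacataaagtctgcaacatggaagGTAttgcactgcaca

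Upstream stretches of 5 genes that were higher with HIF-1α are shown to give the motif in its place: CA9 for the largest rise, PPFIA4 and PGK1 because the study discusses their RNA, and ALDOC and BNIP3 because their response differed from that to HIF-2α. Each is the 250 bases before the RefSeq start (build GRCh38.p14), written along the gene's own strand, and the capitals mark ACGTG or GCGTG on either strand, where a CACGTG counts as 1 match on each strand. The positions are chr9:35673678-35673927 for CA9 (plus strand), chr1:203026241-203026490 for PPFIA4 (plus), chrX:78103998-78104247 for PGK1 (plus), chr17:28576896-28577145 for ALDOC (minus) and chr10:131981924-131982173 for BNIP3 (minus).
CA9: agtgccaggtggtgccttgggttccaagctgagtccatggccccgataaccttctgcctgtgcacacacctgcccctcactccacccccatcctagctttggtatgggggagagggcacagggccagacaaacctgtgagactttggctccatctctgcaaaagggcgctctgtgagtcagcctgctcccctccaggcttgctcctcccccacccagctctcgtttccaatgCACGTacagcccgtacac
PPFIA4: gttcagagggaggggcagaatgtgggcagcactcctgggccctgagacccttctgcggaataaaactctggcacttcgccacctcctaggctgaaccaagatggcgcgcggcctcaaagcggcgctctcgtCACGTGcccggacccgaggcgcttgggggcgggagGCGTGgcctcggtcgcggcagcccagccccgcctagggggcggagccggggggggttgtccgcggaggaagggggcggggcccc
PGK1: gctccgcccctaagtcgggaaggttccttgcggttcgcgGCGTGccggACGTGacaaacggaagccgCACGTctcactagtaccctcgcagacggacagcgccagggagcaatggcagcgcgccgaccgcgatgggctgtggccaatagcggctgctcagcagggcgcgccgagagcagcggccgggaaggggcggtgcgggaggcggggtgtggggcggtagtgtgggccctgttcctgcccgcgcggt
ALDOC: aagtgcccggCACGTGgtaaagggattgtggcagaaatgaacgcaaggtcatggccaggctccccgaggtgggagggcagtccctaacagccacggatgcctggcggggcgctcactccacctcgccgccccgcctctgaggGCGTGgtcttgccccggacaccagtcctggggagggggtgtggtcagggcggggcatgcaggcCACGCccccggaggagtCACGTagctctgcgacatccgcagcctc
BNIP3: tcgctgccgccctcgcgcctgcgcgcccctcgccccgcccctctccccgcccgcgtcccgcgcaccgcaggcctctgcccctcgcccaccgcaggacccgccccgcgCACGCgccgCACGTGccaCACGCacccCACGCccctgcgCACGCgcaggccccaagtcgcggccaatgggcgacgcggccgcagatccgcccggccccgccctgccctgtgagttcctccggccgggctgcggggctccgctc

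The motif was present once in the CA9 stretch, beginning 18 bases before the start, 3 times for PPFIA4 and PGK1, 5 times for ALDOC and 6 times for BNIP3. These letters are common: 43.1% of the 27305 RefSeq promoters of the same length hold at least 1 match, as do 54.8% of the 12661 that belong to genes tested here. Of the 283 genes called higher, 195 had a promoter in the table, and 101 of these held a match (51.8%, 95% Wilson interval 44.8% to 58.7%). With so many members lacking a promoter the comparison of these shares is void, and no excess is claimed. Among the 14 largest rises named below, no match was found in the stretches of POU3F3, PTPRN, PRKCZ, AUTS2, KCNN1 and SARDH.

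The 6 libraries hold between 46864256 and 78509555 counts. Marker genes of the renal carcinoma line were present in all of them (PAX8 at 335 to 515 CPM, reads scaled to the library total), while CD3E, DCN, HBA1 and HBB were at 0 in all 6. Libraries of different groups lay farther apart than libraries of the same group, with mean Euclidean distances of 136 and 119 in log2 CPM, although the ranges overlapped (116 to 147 and 110 to 130). RNA of the mitochondrial genome took 0.0971% to 0.246% of the counts in HIF-1α libraries and 0.208% to 0.366% in HIF-1αDM libraries, and the part of this in the results was not tested.

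The transgene was checked first. HIF1A had 2786, 3082 and 3245 normalized counts in the HIF-1α libraries and 2583, 2148 and 2017 in the HIF-1αDM libraries, where a normalized count is the read count scaled to a common library size. All 6 values lay far above the 238, 231 and 257 of WT cells and close to the 2366, 2803 and 2367 of HIF-1α R30E cells. The HIF-1α libraries did not overlap the HIF-1αDM libraries, but the log2 difference of 0.43 ± 0.23 (SE) did not pass the test (edgeR quasi-likelihood test, adjusted p = 0.466), and its 95% interval ran from -0.01 to 0.87. Reads of the transgene and of the cells' own HIF1A gene cannot be told apart in these counts. ARNT, the partner subunit, had 1548 ± 358 normalized counts with HIF-1α and 1325 ± 227 with HIF-1αDM (SD, n = 3 each), and did not pass the test (log2 difference 0.22, adjusted p = 0.799).

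EPAS1, which encodes HIF-2α, was higher with HIF-1α. Its levels were 20941, 25911 and 22002 normalized counts in HIF-1α libraries and 10161, 12864 and 11365 in HIF-1αDM libraries, against 12563, 14335 and 16596 in WT. The groups did not overlap, and the rise was at the edge of the thresholds (log2 difference 1.00 ± 0.20, adjusted p = 0.0028). It was no longer called without HIF-1α replicate 2 (log2 difference 0.91, adjusted p = 0.0261), HIF-1αDM replicate 1 (0.92, adjusted p = 0.0339) or HIF-1αDM replicate 3 (1.02, adjusted p = 0.0214). In batch 2 EPAS1 had 16360 ± 1137 normalized counts with HIF-1α and 12621 ± 820 in WT, a log2 difference of 0.37. So the lines compared here also differed in the RNA of the other α subunit, whose part in the results below was not tested.

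Among the genes called, most were higher with an intact dimerization surface, while the median log2 difference over all genes tested was 0.00. A gene was called where its adjusted p did not exceed 0.01 and it differed 2-fold or more. By this measure, 283 of 23410 genes tested were called higher with HIF-1α than with HIF-1αDM (1.21%) and 37 were called lower (0.158%). The genes called higher had a median log2 difference of 2.29, up to 10.51, and 109 of them differed at least 8-fold, while those called lower had a median of -1.30 and none reached 8-fold. In every called gene the 3 HIF-1α libraries lay outside the range of the 3 HIF-1αDM libraries, a pattern that 9.3% of all genes tested showed upwards and 8.04% downwards. Protein-coding genes made up 265 of the 283 and 35 of the 37, against 63.7% of all genes tested. The last genes inside the threshold were IFI27 and EGR2 (adjusted p = 0.0093 each), and the first outside it were AP000695.2, SFRP2 and CYBRD1, at adjusted p-values of 0.01002 to 0.01038. The number called higher dropped to 182 without HIF-1αDM replicate 1, and the number called lower to 19 and 15 without HIF-1α replicates 1 and 2 and to 16 and 21 without HIF-1αDM replicates 1 and 3, so the list of falls is the less stable of the pair. Reads were counted without strand, and 138 of the 283 genes overlap a gene on the other strand, as do 13322 of all genes tested.

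**Figure D1:**
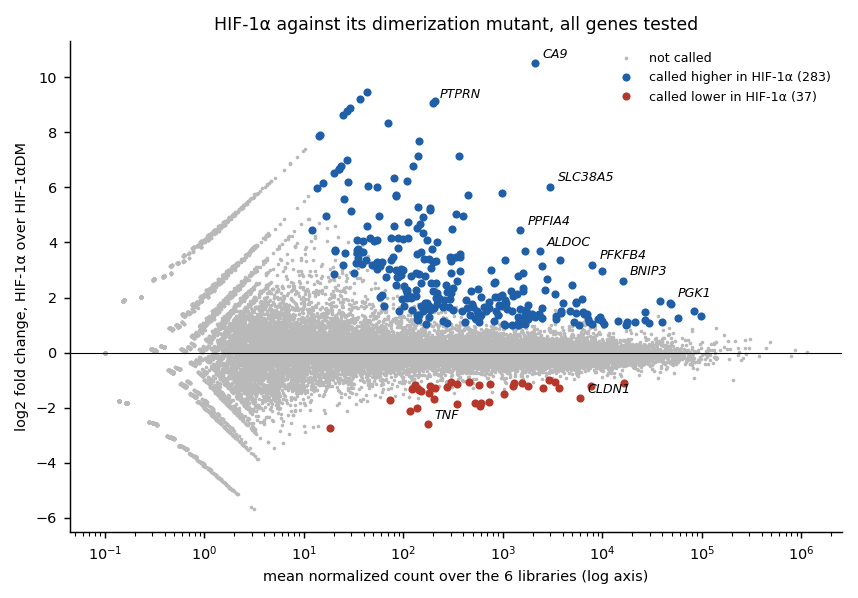
Each point is a gene, with its mean normalized count over the 6 libraries on the x axis (log scale) and its fitted log2 fold change of HIF-1α over HIF-1αDM on the y axis. The 283 genes called higher (blue) spread up to 10.51, whereas the 37 called lower (red) stay above -2.8.

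CA9 showed the largest rise of all genes tested. It encodes carbonic anhydrase IX, a membrane enzyme that hydrates CO2 at the cell surface, and lies at chr9:35673928-35681159. It had 4276, 4602 and 3872 normalized counts in HIF-1α libraries and 0.996, 4.88 and 2.51 in HIF-1αDM libraries. WT cells had 0 to 2.90 and R30E cells 1.00 to 1.71, so that 1 HIF-1αDM library lay above both ranges by a few reads, and the HIF-2α libraries had 41.1, 5.91 and 18.1. With 9 reads in the 3 HIF-1αDM libraries together, the ratio of summed counts was 1505, with a 95% counting interval from 793 to 3293 (exact binomial, counting error only).

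PTPRN, a secretory granule membrane protein of neuroendocrine cells, was high with HIF-1α and close to 0 in the other lines shown here. Its HIF-1α libraries had 473, 397 and 316 normalized counts and its HIF-1αDM libraries 0, 1.95 and 0, and WT, R30E, HIF-2α and HIF-2αDM libraries all stayed at or below 3.19. The ratio of summed counts was 635 with a counting interval from 175 to 5251, and the fitted log2 difference was 9.04 (adjusted p = 8.6e-08). In batch 2 it had 230, 210 and 146 normalized counts with HIF-1α and 0, 1.62 and 4.01 in WT. POU3F3, which encodes a POU-domain transcription factor, had 349, 428 and 459 normalized counts with HIF-1α and 0, 0 and 1.68 with HIF-1αDM. Unlike PTPRN, it was as high with HIF-2α (303, 434 and 633) and was above HIF-1αDM in WT cells, at 3.30, 12.6 and 16.2.

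The other largest rises were PRKCZ, ISM2, CCDC8, MLPH, AUTS2, KISS1R, KCNN1, SLC38A5, CABP1, SARDH and ZP1, with fitted log2 differences from 5.73 to 8.33. PRKCZ encodes an atypical protein kinase C, KISS1R the kisspeptin receptor, KCNN1 a calcium-activated potassium channel and MLPH an adaptor of melanosome transport. Most of them were held at a few reads in HIF-1αDM libraries, from 1 read for PRKCZ to 16 for MLPH over 3 libraries, so that their folds are loosely set. HIF-1αDM means lay below WT for PRKCZ, CCDC8, MLPH, AUTS2, KISS1R, SLC38A5 and SARDH, and above WT for ISM2, KCNN1, CABP1 and ZP1. MLPH had 33.4 ± 8.01 normalized counts in WT and 5.06 ± 1.48 with HIF-1αDM, where it was called lower (log2 difference -2.71, adjusted p = 0.0018). A difference from HIF-1αDM is therefore not a rise over WT of the same size. SLC38A5, an amino acid transporter, was measured well in both groups, at 5235, 6844 and 5782 normalized counts with HIF-1α and 96.6, 107 and 71.2 with HIF-1αDM (log2 difference 6.02 ± 0.39, adjusted p = 7.6e-11). The same holds for SARDH, the mitochondrial sarcosine dehydrogenase, at 1931 ± 425 and 34.4 ± 6.55 (SD, n = 3 each). CABP1, a calcium-binding protein, had 307 reads against 5 and was no longer called without HIF-1αDM replicate 1 (adjusted p = 0.0219) or 2 (adjusted p = 0.0171).

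PPFIA4, a liprin of the scaffold family that organizes synapses and cell adhesions, rose from 59.8, 125 and 206 normalized counts in HIF-1αDM to 4221, 2463 and 1874 in HIF-1α libraries. Its fitted difference was 21.8-fold (log2 4.45 ± 0.55, adjusted p = 4.8e-06), while R30E cells had 78.0 ± 51.5 and WT cells 121 ± 28.8. With HIF-2α its mean was 223 ± 81.3.

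Glycolytic enzymes were among the genes called higher. Of 17 enzymes tested, 7 were called higher and none lower, 16 had a log2 difference above 0 and the list's median was 0.90, against a median of 0.00 over all genes tested and 1.21% called higher. ALDOC, the aldolase isoform of brain, had 5473, 4868 and 2748 normalized counts with HIF-1α and 350, 436 and 233 with HIF-1αDM, a 12.9-fold difference (log2 3.68 ± 0.31, adjusted p = 8.3e-09). ENO2, the enolase of neurons, differed by 7.80-fold (23975, 15658 and 13468 against 2527, 2210 and 2070). PGK1, phosphoglycerate kinase, had 107810, 62459 and 53808 normalized counts with HIF-1α and 27901, 19893 and 16268 with HIF-1αDM. The groups did not overlap and the log2 difference was 1.81, but its replicates spread widely (SE 0.38) and its adjusted p was 0.0049. Levels fell from replicate 1 to replicate 3 in both groups, and PGK1 stayed called with the replicate number in the model. PGK1 was no longer called when HIF-1α replicate 1 (adjusted p = 0.0566) or HIF-1αDM replicate 1 (0.0110), 2 (0.0322) or 3 (0.0404) was left out. LDHA, the dehydrogenase that makes lactate, had 84126, 78083 and 81352 against 45301, 30692 and 25862 normalized counts (log2 difference 1.26, adjusted p = 0.0016), and missed the threshold without HIF-1αDM replicate 2 (adjusted p = 0.0162) or 3 (0.0178). HK2, which phosphorylates glucose on entry, had a log2 difference of 1.48. Without HIF-1αDM replicate 2 or 3, 4 enzymes of the list were called.

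Several kinases that steer the fate of glucose carbon rose as well. PFKFB4 and PFKFB3 make the activator of phosphofructokinase and PDK1 shuts pyruvate dehydrogenase, and these 3 of 8 kinases tested were called higher, with all 8 above 0 and a median log2 difference of 0.76. PFKFB4 had 17056, 15205 and 10486 normalized counts with HIF-1α and 1256, 1821 and 1598 with HIF-1αDM (log2 difference 3.19 ± 0.22, adjusted p = 1.9e-10). PDK1 went from 352 ± 43.9 to 1440 ± 165 (4.09-fold) and PFKFB3 from 14139 ± 640 to 39477 ± 1501 (2.79-fold). None of the 8 glucose and lactate transporters tested was called, although 6 of 8 were above 0 with a median log2 difference of 0.50. The most abundant of them, SLC16A3, a lactate exporter, had a log2 difference of 0.66 (adjusted p = 0.156), and BSG, its chaperone, 0.11 (adjusted p = 0.908). With DESeq2, without a filter or with the replicate number in the model, 1 transporter was called higher. In glycogen metabolism 4 of 16 genes tested were called higher: PPP1R3C, a subunit that brings phosphatase to glycogen (log2 difference 2.33), GBE1, the branching enzyme (1.44), PPP1R3E (1.21) and GYS1, glycogen synthase (1.04). PPP1R3E was lost in 7 of the 12 settings tried for named genes, with adjusted p-values up to 0.0506.

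**Figure D2:**
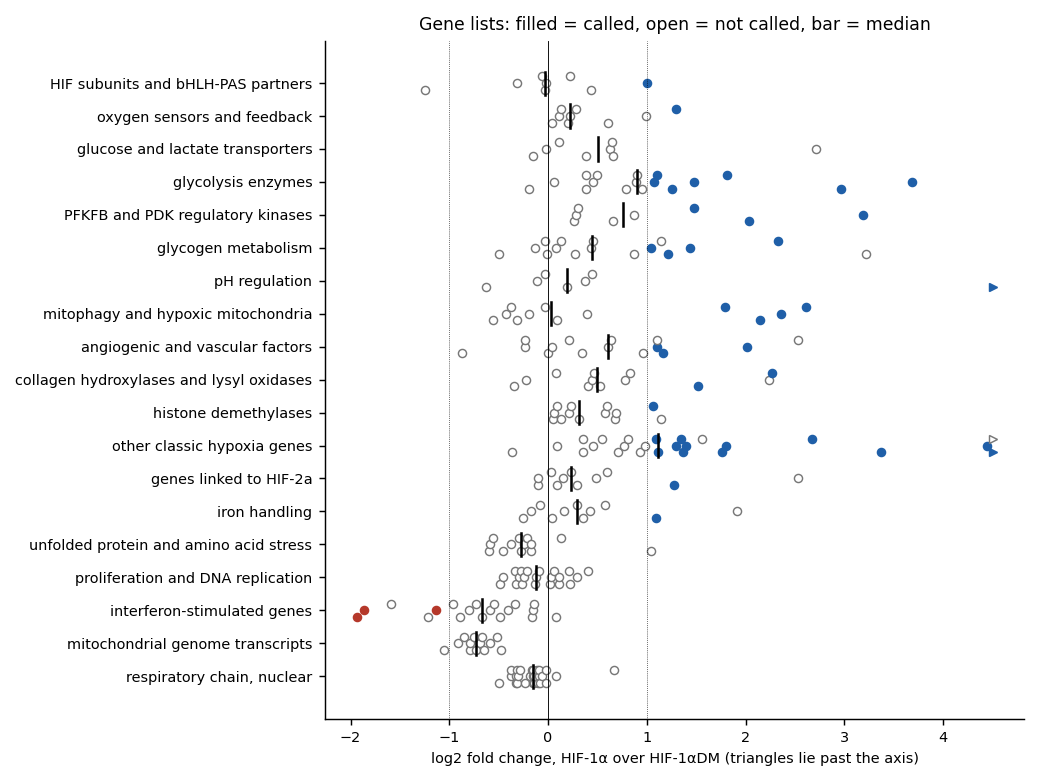
Each row is a gene list and each symbol a tested member at its fitted log2 fold change of HIF-1α over HIF-1αDM, filled where called (blue higher, red lower) and open where not, with the list's median as a bar and dotted lines at a log2 change of 1 in either direction. Glycolysis (7 of 17) and other classic hypoxia genes (12 of 25) hold the most filled symbols, and the only red ones are 3 interferon-stimulated genes.

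Mitophagy genes split. BNIP3 and BNIP3L encode outer membrane receptors that deliver mitochondria to autophagosomes, and they were called higher together with FAM162A, a mitochondrial protein induced by hypoxia, and MXI1, a MYC antagonist, 4 of 12 genes tested. The median of the list was nevertheless 0.03, with 6 genes above and 6 below 0. BNIP3 was among the most tightly measured genes, at 27620, 27114 and 27899 normalized counts with HIF-1α and 4782, 4418 and 4335 with HIF-1αDM (log2 difference 2.61 ± 0.16, adjusted p = 6.0e-11). Its level with HIF-1αDM was close to the 4326, 4135 and 4069 of WT and to the 4167, 4357 and 4171 of HIF-2α cells. BNIP3L differed by 4.41-fold (5486 ± 500 against 1244 ± 208), FAM162A by 5.13-fold (2659 ± 639 against 519 ± 147) and MXI1 by a log2 difference of 1.79. All 13 transcripts of the mitochondrial genome were below 0, with a median log2 difference of -0.73, and none was called. MT-CO1 had 23297, 38597 and 14238 normalized counts against 42728, 67647 and 32532, which overlap (adjusted p = 0.510). Each HIF-1α library nevertheless lay below the HIF-1αDM library of the same number, a pairing that this test did not use. MT-CO1 was not called with the replicate number in the model either. In the fit without a filter, 1 of the 13 was called lower. The nuclear respiratory chain genes had a median of -0.15 with none of 27 called, its most abundant members being CYC1 (log2 difference -0.50, adjusted p = 0.1998) and ATP5F1B (-0.23, adjusted p = 0.657).

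Of 25 other classic hypoxia genes tested, 12 were called higher, 24 were above 0 and the median log2 difference was 1.11. Beside PTPRN and PPFIA4, the named members were STC1, SPAG4 and KCTD11. STC1, a secreted stanniocalcin, had 2332, 1845 and 1543 normalized counts against 173, 237 and 144 (log2 difference 3.37 ± 0.28). SPAG4, a nuclear envelope SUN-domain protein, differed by 6.38-fold and KCTD11, an adaptor of a ubiquitin ligase, by a log2 difference of 1.81. Of the pH genes, CA9 alone of 7 tested was called, and CA12, another membrane carbonic anhydrase, had 15820, 15813 and 9573 against 9994, 12769 and 9124 normalized counts, which overlap (log2 difference 0.37, adjusted p = 0.596).

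A few secreted vascular factors were called higher. ANGPTL4 (log2 difference 2.01), ADM, adrenomedullin (1.16) and VEGFA (1.10) were called higher out of 15 tested, with 11 above 0 and a median of 0.61. VEGFA, the main angiogenic ligand, had 31356, 29177 and 25966 normalized counts with HIF-1α and 12768, 13690 and 13953 with HIF-1αDM, a 2.14-fold difference. In the matrix-modifying group, LOX, which cross-links collagen, differed by 4.81-fold (4394 ± 474 against 914 ± 84.1) and P4HA1, a collagen prolyl hydroxylase subunit, by 2.87-fold, 2 of 12 tested. KDM3A was the only 1 of 13 histone demethylases called (1911, 2049 and 1792 against 875, 935 and 948 normalized counts, log2 difference 1.06), although all 13 were above 0 (median 0.32), and 2 were called with DESeq2, without a filter, with the replicate number in the model or with only the 6 libraries. KDM5C, the most abundant, stood at 0.05 (adjusted p = 0.971).

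Few feedback and HIF-2α-linked genes were called. EGLN3, a prolyl hydroxylase that marks HIF-α for destruction, was the only oxygen sensor of 9 called, at 12364, 15683 and 12297 normalized counts with HIF-1α against 4095, 7367 and 5008 (log2 difference 1.29 ± 0.24, adjusted p = 0.0012). It was lost without HIF-1α replicate 2 (adjusted p = 0.0119), HIF-1αDM replicate 1 (0.0214) or HIF-1αDM replicate 3 (0.0149). CITED2, a competitor for the coactivators of HIF, stood at 0.20 (adjusted p = 0.792). Of 11 genes linked to HIF-2α, IGFBP1, an insulin-like growth factor binding protein, was the 1 called (2081 ± 176 against 862 ± 144 normalized counts, log2 difference 1.27), and the median was 0.23. HSD3B7, a bile acid enzyme, had 792, 784 and 700 against 788, 653 and 608 normalized counts, TGFA, an EGF receptor ligand, a log2 difference of 0.23 (adjusted p = 0.657) and PLXNA2, a semaphorin receptor, 0.59 (adjusted p = 0.256). In iron handling HMOX1, heme oxygenase, was called (log2 difference 1.10, 1 of 11), a call that did not hold without HIF-1α replicate 3 (adjusted p = 0.0156), HIF-1αDM replicate 2 (0.0117) or HIF-1αDM replicate 3 (0.0125), while FTL, ferritin light chain, was not (0.30, adjusted p = 0.767). None of the 21 proliferation genes or the 13 unfolded protein and amino acid stress genes tested was called, their medians being -0.12 and -0.27. Their most abundant members did not pass the test: CDKN1A, a cell cycle inhibitor (log2 difference 0.22, adjusted p = 0.727), MCM7, a replication helicase subunit (-0.27, adjusted p = 0.696), HSPA5, the endoplasmic reticulum chaperone (-0.22, adjusted p = 0.672) and TRIB3, a stress-induced pseudokinase (-0.17, adjusted p = 0.815). Neither did SLC7A5, an amino acid transporter from the list of genes linked to HIF-2α (-0.10, adjusted p = 0.944). CDKN1A nevertheless lay above the 10447 ± 47.1 of WT in both lines, at 35038 ± 4456 with HIF-1α and 30110 ± 6944 with HIF-1αDM. HIF-1αDM against WT called it higher (log2 difference 1.53).

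**Figure D3:**
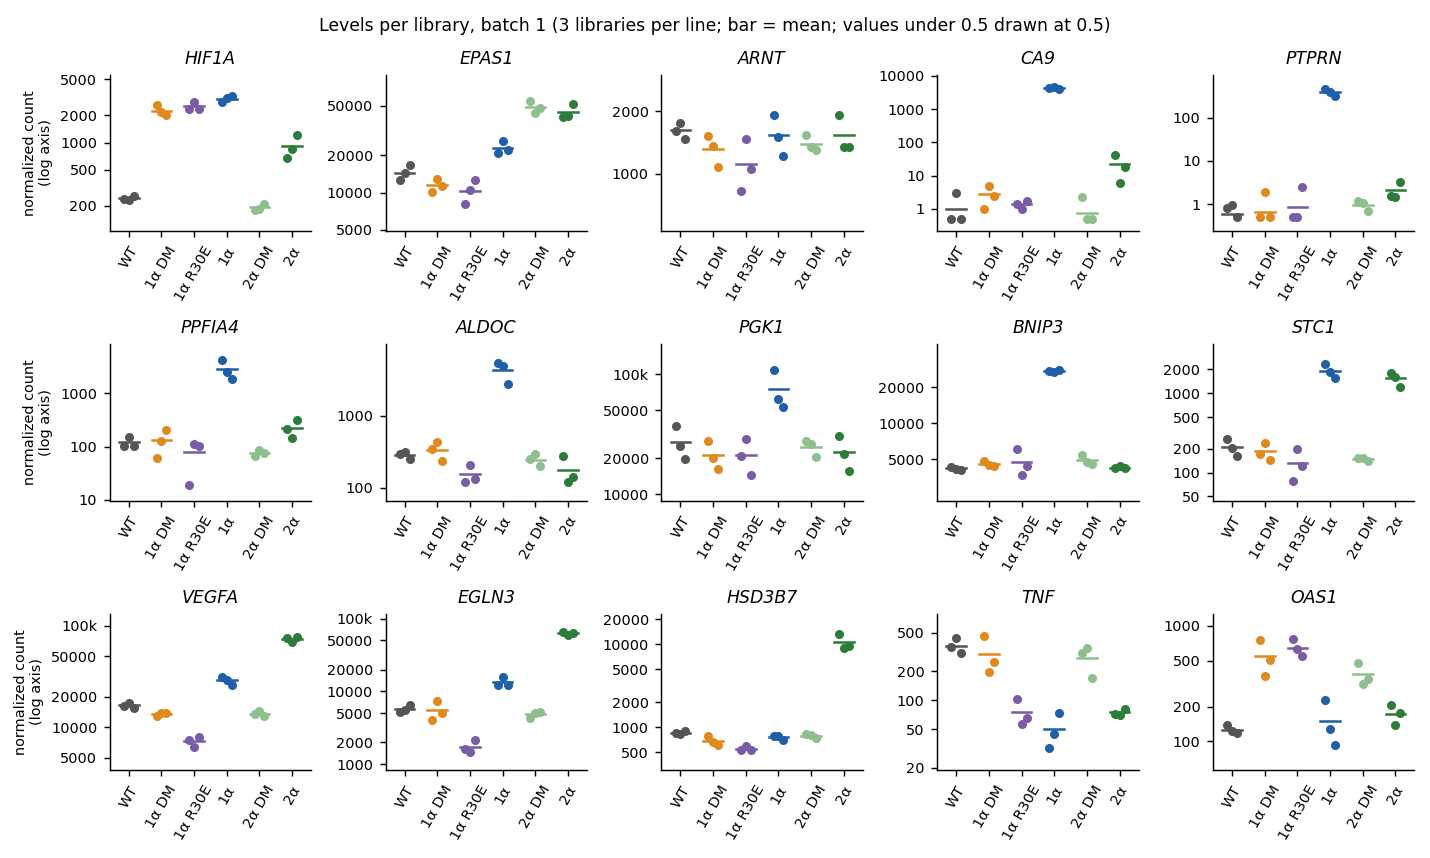
Normalized counts (log axis) of 15 named genes in each batch 1 library of 6 lines, with 3 points per line and the mean as a bar. CA9, PTPRN, PPFIA4, ALDOC, PGK1 and BNIP3 are high in the HIF-1α line, STC1 with either α subunit and HSD3B7 with HIF-2α, while OAS1 is at 543 with HIF-1αDM and 646 with R30E against 127 in WT.

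The genes lower with HIF-1α included cytokines, growth factors and interferon-stimulated genes. TNF, the inflammatory cytokine, fell the most of the named genes. It had 32.1, 44.4 and 72.8 normalized counts with HIF-1α and 461, 195 and 248 with HIF-1αDM (log2 difference -2.59 ± 0.36, adjusted p = 3.2e-05), against 353, 440 and 312 in WT. CLDN1, a tight junction protein, had 1874, 2253 and 4527 against 10489, 6792 and 10003 (log2 difference -1.66), with 10740 ± 697 in WT. AREG, an EGF receptor ligand, fell by 1.83 on the log2 scale (229 ± 59.1 against 819 ± 59.2), ISM1, a secreted isthmin, by 1.82 and QRFPR, a neuropeptide receptor, by 1.68. SLN, a regulator of the sarcoplasmic calcium pump (log2 difference -2.01), and CSF2, a granulocyte-macrophage colony-stimulating factor (-1.78), completed this group. CSF2 was lost without HIF-1α replicate 1 or 2 or HIF-1αDM replicate 1 or 3 (adjusted p = 0.0153 to 0.0624), and SLN without HIF-1α replicate 1, 2 or 3 or HIF-1αDM replicate 1 (0.0103 to 0.0150).

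Some interferon-stimulated genes were lower with HIF-1α than with HIF-1αDM, while WT cells had levels near those of HIF-1α cells. OAS1, IFI27 and MX1 were called lower among 19 tested, and 18 of 19 were below 0, with a median log2 difference of -0.67. OAS1, an antiviral oligoadenylate synthetase, had 227, 128 and 93.8 normalized counts with HIF-1α and 758, 366 and 506 with HIF-1αDM, while WT cells had 139, 123 and 118 and R30E cells 764, 626 and 547. IFI27 and MX1 gave the same order of means: 246 and 216 with HIF-1α, 232 and 190 in WT, 939 and 473 with HIF-1αDM and 1473 and 922 with R30E. EPSTI1, an interferon-responsive gene outside that list, had 54.8, 36.1 and 39.2 against 197, 95.6 and 273. Its call was lost without HIF-1α replicate 2 or 3 or HIF-1αDM replicate 1 or 3 (adjusted p = 0.0128 to 0.0425). In the comparison of R30E with WT, 9 of the 19 were called higher, against 2.04% of all genes. HIF-1αDM against WT, which shares its HIF-1αDM libraries with the comparison above, gave 106 genes higher (0.453%) and 1 lower (0.00427%) in all, and 196 and 11 once replicate numbers were blocked. All 3 calls of the list depended on single libraries: none remained without HIF-1α replicate 2 or 3 or HIF-1αDM replicate 1, and 1 remained without HIF-1α replicate 1 or HIF-1αDM replicate 3. In batch 2, OAS1, MX1 and EPSTI1 were called higher with HIF-1α than in WT (log2 differences 1.43, 1.04 and 1.28).

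Batch 2 gave a measure of the members in libraries that the selection did not use. There, HIF-1α was compared with WT cells rather than with HIF-1αDM, HIF1A itself had 13161 against 293 normalized counts, and 1121 of 28724 genes were called higher (3.9%) and 139 lower (0.484%). Of the 283 genes called higher in batch 1, 254 were called higher in batch 2 (89.8% of these members and 22.7% of the batch 2 list) and none lower. The same sign was seen for 282 of them (99.6%), against 66.3% of the 22915 genes tested in both batches. FAM83F, named because it is the exception, had a log2 difference of 1.35 in batch 1 and -0.84 in batch 2. The members' median log2 difference in batch 2 was 2.63. Of the 37 genes called lower, 24 were called lower in batch 2 (64.9% of these members and 17.3% of the batch 2 list) and 3 higher, the 3 interferon-responsive genes named above. Some named genes were close in size in both batches: log2 differences were 3.68 and 3.68 for ALDOC, 2.61 and 2.54 for BNIP3, 3.37 and 3.35 for STC1, 1.81 and 1.43 for PGK1 and -2.59 and -1.95 for TNF. Others were far apart, at 9.12 and 3.495 for POU3F3, 8.33 and 3.59 for PRKCZ, 7.13 and 4.14 for MLPH, 6.23 and 3.53 for KCNN1, 2.75 and 1.16 for TRPA1, 2.01 and 3.95 for ANGPTL4 and -1.78 and 0.11 for CSF2. The reference was HIF-1αDM in batch 1 and WT in batch 2, so the sizes need not match. In batch 1, HIF-1αDM means were above WT for ANGPTL4 (331 against 103, called), CSF2 (1131 against 591) and KCNN1 (2.75 against 1.58). They were below WT for POU3F3 (0.558 against 10.7), PRKCZ (0.279 against 4.85), MLPH (5.06 against 33.4, called) and TRPA1 (22.8 against 56.4). The part of this in the gaps between batches was not tested. VEGFA (0.99), EGLN3 (0.94) and GYS1 (0.89) lay just under the 2-fold threshold in batch 2.

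**Figure D4:**
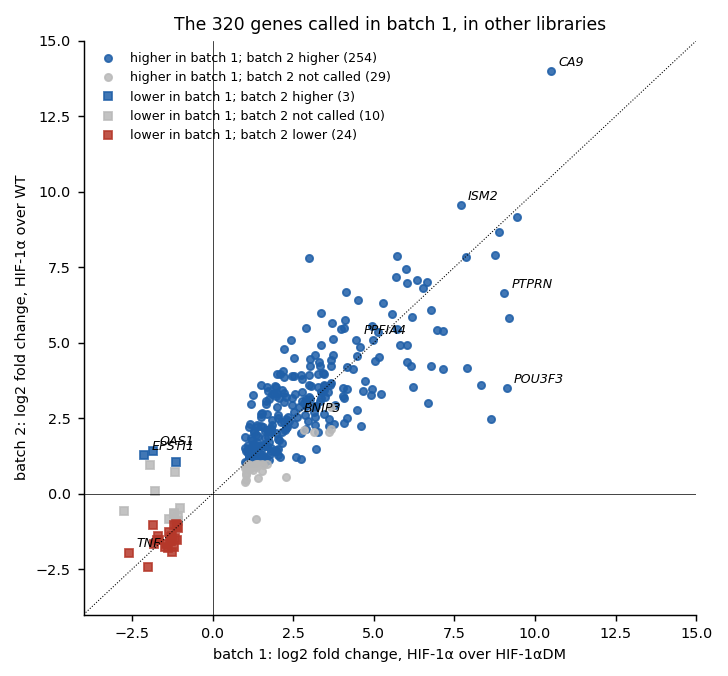
The 320 called genes at their log2 fold change in batch 1 (HIF-1α over HIF-1αDM, x axis) and in batch 2 (HIF-1α over WT, y axis), coloured by the batch 2 call, with equality as a dotted line. Of the genes higher in batch 1, 254 are blue, and the value of CA9 in batch 2 has no fixed size because the WT libraries hold 0 reads of it.

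The DNA-binding mutant gave a further view of these genes with no library in common. In HIF-1α R30E cells against WT, 477 genes were called higher (2.04%) and 134 lower (0.572%). Of the 283 members higher with HIF-1α, 70 were called higher with R30E (24.7% of the members, 14.7% of the R30E list) and 17 lower (6.01% and 12.7%), with a median log2 difference of 0.43. SARDH rose with R30E from 66.4 ± 24.3 to 339 ± 49.9 normalized counts and ANGPTL4 from 103 ± 10.2 to 387 ± 137. In contrast, SLC38A5 went from 230 ± 8.61 down to 21.2 ± 9.99, EGLN3 from 5793 ± 686 to 1756 ± 350 and VEGFA from 16390 ± 842 to 7284 ± 793. CA9, PTPRN, PPFIA4, ALDOC and BNIP3 were not called in that comparison, their adjusted p-values being 0.0731 for ALDOC and 0.624 or higher for the other 4. Of the 37 members lower with HIF-1α, 10 were called lower with R30E (27% of the members and 7.46% of the R30E list). Another 5 were called higher (13.5% and 1.05%). TNF was among those called lower, at 75.0 ± 25.4 with R30E against 369 ± 65.4 in WT.

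The difference between HIF-1α and its dimerization mutant was then compared with that between HIF-2α and its own. HIF-2α against HIF-2αDM, which shares no library with the HIF-1α pair, gave 581 genes higher (2.48%) and 347 lower (1.48%). Among the 283 members, 167 were higher with HIF-2α as well (59% of the members and 28.7% of the HIF-2α list) and 3 lower, with a median log2 difference of 1.86, and among the 37 lower members 21 were lower (56.8% and 6.05%) and none higher. The 2 log2 differences were tested against each other as an interaction, in which 109 of 23410 genes were called above 0 (0.466%) and 108 below 0 (0.461%). Above 0 means that the signed log2 difference was higher in the HIF-1α pair. This also covers genes that fell further with HIF-2α, such as CD74 (-1.11 and -2.28). The interaction was called above 0 for 29 of the 283 and below 0 for 19, and a difference between the α subunits was not detected for the other 235, which does not show that they responded alike.

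Among the genes with the clearer response to HIF-1α were metabolic and mitophagy genes of the lists above. ALDOC had an interaction of 4.16 on the log2 scale (adjusted p = 7.8e-07), with 273, 121 and 141 normalized counts in HIF-2α libraries and 249, 294 and 198 in HIF-2αDM libraries. FAM162A (3.19), BNIP3 (2.82), SARDH (2.68), PFKFB4 (2.00), PDK1 (1.41) and GYS1 (1.14) passed as well. SARDH had 1931 ± 425 normalized counts with HIF-1α and 1225.5 ± 282 with HIF-2α. Its mutant lines lay farther apart, at 34.4 ± 6.55 with HIF-1αDM and 140 ± 8.46 with HIF-2αDM. For PFKFB4 the HIF-2α pair still showed a rise (log2 difference 1.19), while for BNIP3 and FAM162A it showed none that passed the test (-0.21 and -0.83). PTPRN (7.91, adjusted p = 0.0161), PPFIA4 (2.90, adjusted p = 0.0264) and PGK1 (1.95, adjusted p = 0.0549) had interactions of the same sign that did not reach the threshold, and neither did CA9 (5.67, adjusted p = 0.256).

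In the other direction, several genes called higher with HIF-1α differed more between HIF-2α and its mutant. EGLN3 reached 64562, 59982 and 62706 normalized counts with HIF-2α from 4892 ± 511 with HIF-2αDM (interaction -2.38 on the log2 scale, adjusted p = 7.8e-05), and VEGFA reached 74099 ± 4135 (-1.35, adjusted p = 5.1e-05). SLC38A5 (-2.28, adjusted p = 0.0099) had 7593 ± 828 with HIF-2α and 5954 ± 818 with HIF-1α. Its mutant lines lay farther apart, at 23.9 ± 19.9 with HIF-2αDM and 91.7 ± 18.5 with HIF-1αDM, both below the 230 ± 8.61 of WT. HSD3B7 (-3.61), PLXNA2 (-2.70), TGFA (-1.998) and CA12 (-1.958) were not called in the HIF-1α pair and were called higher in the HIF-2α pair. Over WT, however, PLXNA2 was called higher with HIF-1α in batch 2 (log2 difference 1.55) and with R30E in batch 1 (1.67). TGFA had means of 17620 with HIF-1α and 15047 with HIF-1αDM, both above the 9495 of WT. STC1 was among the genes with no detected difference, its log2 difference being 3.37 with HIF-1α and 3.38 with HIF-2α, and LOX (2.27 and 3.14, interaction -0.88, adjusted p = 0.151) and HK2 (1.48 and 1.61) did not pass either. TRPA1, ESAM and L1CAM were the 3 members higher with HIF-1α and lower with HIF-2α: TRPA1, a cation channel, had 154 ± 38.1 against 22.8 ± 4.23 normalized counts in the HIF-1α pair and 8.38 ± 4.95 against 26.8 ± 8.95 in the HIF-2α pair.

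**Figure D5:**
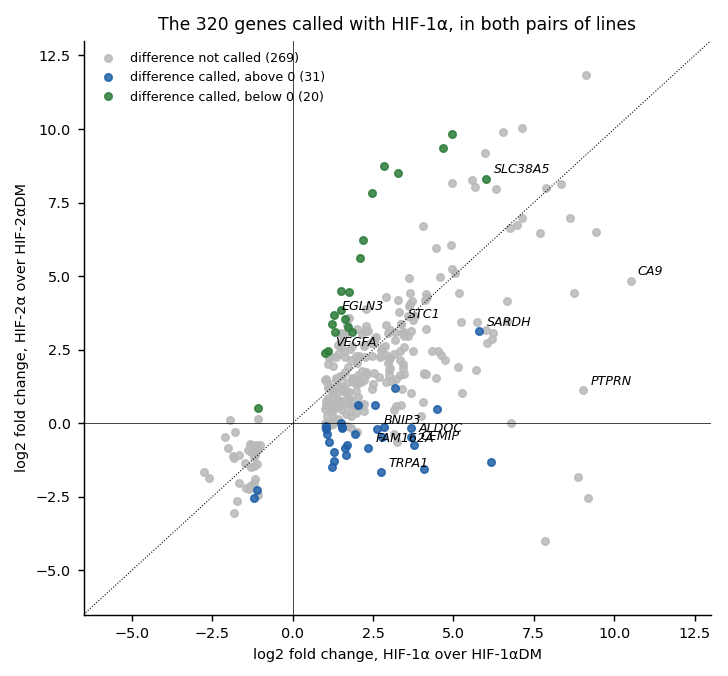
The 320 genes called with HIF-1α at their log2 fold change in the HIF-1α pair (x axis) and the HIF-2α pair (y axis), with equality as a dotted line and the genes of a called interaction in colour (31 above 0, 20 below 0). ALDOC, BNIP3 and FAM162A lie near 0 on the y axis, whereas EGLN3 and VEGFA lie above the line.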

How the data were processed

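Gene counts were analysed for 6 batch 1 libraries (HIF-1α and HIF-1αDM), fitted with all 27 libraries of that batch. The authors deposited raw read counts per gene, 1 file per library. PolyA reads were aligned to hg38 with STAR, keeping unique alignments, and counted without strand with HTSeq in union mode. The labels name STAR 2.7 and HTSeq 0.11.1, and the methods name other releases of both. Reads that overlap 2 genes are then not counted, transgene and endogenous reads merge, and rows of the added spike-in RNA were not used here.

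Genes averaging 0.5 normalized counts or more were kept, TMM factors were computed, and groups were compared by edgeR's quasi-likelihood test (edgeR 4.0.16, limma 3.58.1, R 4.3.3) with Benjamini-Hochberg adjustment, calling genes whose adjusted p did not exceed 0.01 and that differed 2-fold or more. The 15 batch 2 libraries were fitted separately, so levels are compared only within a batch. The standard error is the log2 difference divided by the root of its F statistic. Nothing in the labels says how separate the cultures of 1 line were, so p-values measure the spread between these libraries, and intervals from counts cover counting error only.

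The members and the 19 gene lists were chosen with earlier results of these data known. Named are HIF1A, EPAS1, ARNT and 6 genes that the study text discusses, the 14 largest rises and 10 largest falls (called, mean of at least 50, no overlap, no clone name), up to 5 called genes per list, made up to 2 with the most abundant, and the 4 largest interactions each way (mean of at least 50, no overlap in at least 1 pair). Gene positions and exons are from GENCODE 44, promoters from RefSeq.

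Alternatives were DESeq2 (1.42.0), RLE size factors, no filter, a mean of at least 10, only the libraries compared, the replicate number as a block, and leaving out each library. Same-numbered HIF-1αDM and WT libraries deviated together from their group means (correlations 0.139, 0.146 and 0.391), so the block is given beside that comparison. In the other comparisons at least 1 such correlation was below 0.1, and the numbers were not taken as pairs. All same-number correlations of those comparisons were nevertheless positive in batch 1, and replicate 3 had the highest. Its values were 0.352 for HIF-1α and HIF-1αDM, 0.359 for HIF-2α and HIF-2αDM and 0.474 for R30E and WT. In the same order, replicate 2 had 0.203, 0.0971 and 0.198, and replicate 1 had 0.0508, 0.11 and 0.0687. Counts of the HIF-1α pair under the block are therefore given below.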

Additional observations from a re-analysis of the deposited data

Results flagged for a closer look

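For 22 of the named genes, the change between an α subunit and its dimerization mutant was unequal in the HIF-1α and HIF-2α pairs of lines. That inequality itself was tested (edgeR quasi-likelihood interaction, adjusted p of at most 0.01 and at least 2-fold). The values are log2 differences, positive where the signed change was higher in the HIF-1α pair.

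On the positive side, CEMIP, a hyaluronan-binding protein, had 4.51. Its normalized counts were 361 ± 121 against 26.5 ± 10.1 in the HIF-1α pair and 29.1 ± 14.3 against 49.2 ± 27.2 in the HIF-2α pair. CEMIP was also called higher with R30E, at 176.5 ± 98.4 against 17.0 ± 2.70 in WT. TRPA1 had 4.41, ALDOC 4.16, FAM162A 3.19, BNIP3 2.82, SARDH 2.68, PFKFB4 2.00, PDK1 1.41 and GYS1 1.14. NKX2-5, a homeobox transcription factor, had 4.12 although it was not called in the HIF-1α pair. Its means were 108 with HIF-1α, 71.3 with HIF-1αDM, 148 with R30E and 121 with HIF-2αDM, against 2.59 in WT and 9.82 with HIF-2α.

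On the negative side, LHX5, a homeobox gene, had -10.91, SYN3, a synapsin, -9.75, NKD2, an antagonist of WNT signalling, -7.93 and COL23A1, a membrane collagen, -7.39. These 4 were near 0 in both HIF-1α and HIF-1αDM libraries and had means of 1263, 633, 597 and 417 normalized counts with HIF-2α, so that the sizes are loosely set. HSD3B7 had -3.61, PLXNA2 -2.70, EGLN3 -2.38, SLC38A5 -2.28, TGFA -1.998, CA12 -1.958 and VEGFA -1.35. HIF1A had -1.81: its RNA was at 667, 846 and 1216 normalized counts in HIF-2α libraries and at 182, 187 and 210 in HIF-2αDM libraries. In the HIF-1α pair both lines carry a HIF1A transgene whose reads merge with the cells' own. For HIF1A the interaction is therefore no measure of a response to dimerization.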

How the results depend on the processing

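Of the 82 named genes, 65 kept their direction and their side of the thresholds in HIF-1α against HIF-1αDM under all 12 settings, and 78 never changed sign. The exceptions in sign had not been called: SLC7A5 stood at 0.0759 without HIF-1α replicate 1 and 0.02 without HIF-1αDM replicate 3, SYN3 at 0.15 and 0.17 without HIF-1α replicates 1 and 3 and at 0.24 without HIF-1αDM replicate 2, NKD2 at -0.97 without HIF-1α replicate 2 and -0.45 without HIF-1αDM replicate 3, and KDM5C at -0.0014 without HIF-1αDM replicate 1. Over single libraries left out, the lowest and highest values were -0.325 and 0.0759 for SLC7A5, -3.757 and 0.24 for SYN3, -0.97 and 0.6546 for NKD2 and -0.0014 and 0.1552 for KDM5C. The HIF1A difference ranged from 0.38 to 0.54 and was never called.

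Leaving out 1 library at a time, genes called higher with HIF-1α than with HIF-1αDM numbered 182 to 257, and genes called lower 15 to 46. Interactions above 0 numbered 71 to 95, and genes of HIF-1αDM against WT 51 to 110 higher and 0 to 2 lower. DESeq2 called 394 higher and 62 lower, interactions of 198 above and 179 below 0, and 193 higher and 11 lower for HIF-1αDM against WT (1 lower as reported). Without a filter the interactions numbered 192 and 176, and HIF-1αDM against WT gave 196 and 12. A mean of at least 10 gave 4 lower in the latter. The cause of these shifts was not tested. With only the 6 libraries, 23 of the 37 genes called lower remained.

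The replicate block gave 397 higher (282 of the 283) and 68 lower (all 37), interactions of 248 and 195, 203 lower with R30E, 196 and 11 for HIF-1αDM against WT, and 39 genes lower in both batches in place of 24. Same-numbered HIF-1α and HIF-1αDM libraries deviated from their group means with correlations of 0.0508, 0.203 and 0.352, and HIF-1α replicate 1 correlated more with HIF-1αDM replicate 2 (0.144) than with its own number. The labels name nothing shared by a number. For HIF-1αDM and WT all 3 same-number correlations passed 0.1. For ACGTG alone, the share was 24.1% of the 195 genes called higher with a promoter (95% Wilson interval 18.6% to 30.6%), 22.2% of the 27 called lower and 22.6% of the tested genes with one, a comparison that is void for the same lack of promoters. At these depths 3 reads correspond to about 2.51 to 4.17 normalized counts.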

Other observations

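EREG and AREG, which encode ligands of the EGF receptor, were lower in both pairs of lines, and were picked after the values were seen. EREG, epiregulin, had 4696 normalized counts with HIF-1α against 10846 with HIF-1αDM, and 1988 with HIF-2α against 11584 with HIF-2αDM, and its interaction of 1.34 on the log2 scale was called, so that it was lower in both pairs and more so with HIF-2α. AREG had means of 229 and 819 in the HIF-1α pair and 112 and 926 in the HIF-2α pair. TGFA, from the same family, went the other way with HIF-2α, at 58477 normalized counts against 12501 with HIF-2αDM. It was not called in the HIF-1α pair.

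CD74, the invariant chain of MHC class II, was lower with HIF-1α (813 against 1756 normalized counts) and further reduced with HIF-2α (313 against 1528). MAP3K8, a kinase of inflammatory signalling, was lower in the HIF-1α pair than in the HIF-2α pair by the test of the difference (interaction -1.61), at 297 against 627 in the HIF-1α pair and 918 against 635 in the HIF-2α pair. L1CAM, a cell adhesion molecule, had 10077 normalized counts with HIF-1α and 4334 with HIF-1αDM, but 26665 with R30E and 3638 in WT.

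By chromosome, among genes with a mean of at least 50 normalized counts, the median log2 difference was 0.12 on chromosome 14 (402 genes), -0.14 on chromosome 12 (686 genes) and -0.18 on chromosome 13 (219 genes), and it lay between -0.09 and 0.05 on the other nuclear chromosomes.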
